A study of Mus musculus with 281 samples.

Results

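Late neutrophil granule and surface genes were followed in single cells of the mouse bone marrow, with the question of which of them had begun in preNeu cells, the neutrophil stage that follows proneu cells in maturation, and which had not. The 7 genes were Mmp8, Mmp9, Cd177, Retnlg, Pglyrp1, Hp and Cxcr2, taken by name from the 43280 gene symbols of the deposited expression table, of which 17830 were above 0 in any cell. The series held single cells of C57BL/6 mice, an inbred strain, each sequenced with the SMART-seq2 protocol, which covers whole transcripts. By cell type label there were 31 preNeu cells, 22 proneu cells, Ly6C+GMP cells in stretches of 95 and 10 by sample title, 45 Ly6C-GMP, 47 CMP and 31 tpMo cells. All groups carried the same strain name, and the labels gave no treatment, genotype difference, age or animal for any cell.

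The CMP and GMP gates took lineage-negative cells positive for c-Kit and CD34 and negative for Sca-1, with CD16/32 low in CMP and high in GMP cells, which were then split by Ly6C. Gr1+, CD11b+, c-Kit+ and CXCR4+ cells without CD115 or SiglecF made the preNeu gate. Cells positive for CD115, CXCR4 and Ly6C and negative for c-Kit made the tpMo gate. Of the proneu cells, 21 carried the Ly6C+GMP gate and 1 had no gate in its labels, so the proneu name rests on a step that the labels do not describe. As no animal or culture was named, each label counts as 1 sample. Cells are not replicates, so no test was made between labels. SDs over cells describe their spread, and exact 95% intervals of shares cover counting error only.

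Neutrophils load their granules in waves. Azurophil or primary granules, with myeloperoxidase and elastase, are filled first, specific or secondary granules, with lactoferrin, follow, and gelatinase granules come last. Chemokine receptors and other surface proteins that serve release from the marrow and entry into tissue are mostly acquired by non-dividing, late-stage cells. Mmp8 (neutrophil collagenase) and Mmp9 (gelatinase B) encode matrix proteases of specific and gelatinase granules. Hp encodes haptoglobin, which binds free haemoglobin, and Pglyrp1 a peptidoglycan-binding antibacterial protein, both stored in neutrophil granules. Cd177 encodes a GPI-anchored neutrophil surface protein found also on specific granule membranes. Retnlg encodes resistin-like gamma, a secreted protein of mature mouse neutrophils, and Cxcr2 the receptor for neutrophil-attracting CXC chemokines.

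Expression was given as TPM, a transcript abundance scaled by transcript length and by the total of each cell. A cell was counted as having a gene at 10 TPM or more. Genes were called widespread in a label at 50% of its cells or more, partial from 10% and rare below 10%. The 7 genes split in preNeu cells, with 3 widespread (Cd177, Pglyrp1 and Hp, each in at least 30 of 31 cells) and 4 rare (Mmp8, Mmp9, Retnlg and Cxcr2, each in at most 3 of 31 cells). None was partial, though Mmp9 and Cxcr2, at 3 of 31 cells (9.68%), were just under that limit, and counted at 1 TPM Cxcr2 was in 5 of 31 cells. Among the 8329 genes with a preNeu mean of at least 1 TPM, 10.5% were widespread, 42.7% partial and 46.8% rare.

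On GRCm38 with the GENCODE M21 annotation, Cd177 lies at chr7:24743983-24760311 on the minus strand and Pglyrp1 at chr7:18871331-18890459 on the plus strand. Hp lies at chr8:109575128-109579172 on the minus strand. Mmp8 is at chr9:7558456-7568485, Mmp9 at chr2:164940780-164955850, Retnlg at chr16:48872621-48874496 and Cxcr2 at chr1:74153989-74161246, all on the plus strand. No other annotated gene overlapped any of the 7. RefSeq promoter windows (GRCm38.p6, 250 bases before to 50 after the RefSeq start) were at hand for 5 of them, not for Mmp9 or Hp. The RefSeq start of Pglyrp1 lies 13359 bases inside its GENCODE span, and the starts of the other 4 are 0 to 27 bases apart. Shown are 2 genes present in every preNeu cell, Cd177 (chr7:24760262-24760561, minus strand) and Pglyrp1 (chr7:18884440-18884739, plus strand), and 2 absent from nearly all of them, Mmp8 (chr9:7558179-7558478, plus strand) and Retnlg (chr16:48872358-48872657, plus strand). Each runs 5′ to 3′ along its gene, with capitals for the motifs named after the sequences.
Cd177: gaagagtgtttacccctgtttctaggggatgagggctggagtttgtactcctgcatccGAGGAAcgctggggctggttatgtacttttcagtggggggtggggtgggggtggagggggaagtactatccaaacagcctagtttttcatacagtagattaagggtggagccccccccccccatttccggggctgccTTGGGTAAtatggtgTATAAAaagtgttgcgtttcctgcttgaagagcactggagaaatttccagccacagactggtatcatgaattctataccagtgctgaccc
Pglyrp1: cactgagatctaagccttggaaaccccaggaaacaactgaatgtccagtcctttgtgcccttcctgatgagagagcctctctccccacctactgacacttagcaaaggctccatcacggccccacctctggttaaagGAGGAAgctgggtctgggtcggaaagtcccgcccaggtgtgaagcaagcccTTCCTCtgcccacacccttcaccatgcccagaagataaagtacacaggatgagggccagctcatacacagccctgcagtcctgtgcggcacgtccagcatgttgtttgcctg
Mmp8: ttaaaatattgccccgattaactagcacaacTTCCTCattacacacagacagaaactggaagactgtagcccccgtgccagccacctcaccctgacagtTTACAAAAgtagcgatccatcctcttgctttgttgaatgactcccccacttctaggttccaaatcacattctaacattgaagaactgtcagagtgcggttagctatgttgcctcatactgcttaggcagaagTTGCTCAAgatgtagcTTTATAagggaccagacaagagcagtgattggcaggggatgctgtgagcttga
Retnlg: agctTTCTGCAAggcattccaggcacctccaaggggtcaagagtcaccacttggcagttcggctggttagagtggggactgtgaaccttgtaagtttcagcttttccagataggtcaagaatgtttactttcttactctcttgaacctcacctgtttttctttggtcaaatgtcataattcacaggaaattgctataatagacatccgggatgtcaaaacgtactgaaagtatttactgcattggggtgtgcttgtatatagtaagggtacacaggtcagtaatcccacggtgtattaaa

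Motif letters were searched on both strands. They were TTNCNNAA (reverse TTNNGNAA), a core of C/EBP sites, GAGGAA (reverse TTCCTC), a core of PU.1 sites, and the TATA box TATAAA (reverse TTTATA). Of 32851 RefSeq promoter windows, 40.7% held the C/EBP letters, 28.3% the PU.1 letters and 13.6% the TATA letters. Cd177 had all 3, starting at bases -192 (PU.1), -55 (C/EBP) and -40 (TATA) from the RefSeq start. Mmp8 also had all 3, with C/EBP letters at -151 and -19, PU.1 letters at -219 and TATA letters on the minus strand at -3. Retnlg had the C/EBP letters alone, at -246. Pglyrp1 had the PU.1 letters at -113 and -62, and Cxcr2 had them at -81 and 7, both without the other motifs. No matches overlapped each other. The C/EBP and PU.1 letters each occurred in windows of widespread and of sparse genes, and a match is a description of letters, not evidence of binding.

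Before the members' values, the labels were set against granule markers and the state of the libraries. The summed level of 14 secondary granule genes had a median of 385116 TPM in preNeu cells (258847 to 503027), against 3921 TPM in proneu and 54802 TPM in tpMo cells. The tpMo sum rested mostly on Lyz2, a gene of that list. Lyz2 had medians of 53623 TPM in tpMo, 40854 TPM in preNeu and 417 TPM in proneu cells. Other tpMo medians from the list were 1731 TPM for Chil3, 89.6 TPM for Ngp and 26.8 TPM for Camp. The sum of 8 primary granule genes was 811 TPM in preNeu cells, against 117248 TPM in proneu cells, and that of 12 monocyte markers 8.20 TPM in preNeu cells, against 7614 TPM in tpMo cells. The genes seen at 1 TPM or more numbered a median of 2373 per preNeu cell (1487 to 3224), with medians of 3082 to 4829 in the other labels. The 20 most abundant genes of a cell made up a median of 47.1% of preNeu TPM, and 14.2% to 22.4% in the other labels. As TPM is a share of the total of a cell, the abundant granule transcripts lower the TPM of every other gene in preNeu cells. Sample titles were grouped here into title runs A, B, C and H, for which the labels state no meaning. Runs A, B and C follow each other in one unbroken numbering, and their borders lie where the cell type labels change. Labels also change within runs B and C. Run H has a separate numbering. All preNeu and tpMo cells, 21 of 22 proneu cells and 10 Ly6C+GMP cells were in run C, while the other 95 Ly6C+GMP cells were in run A and the Ly6C-GMP and CMP cells in runs B and H.

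**Figure D1:**
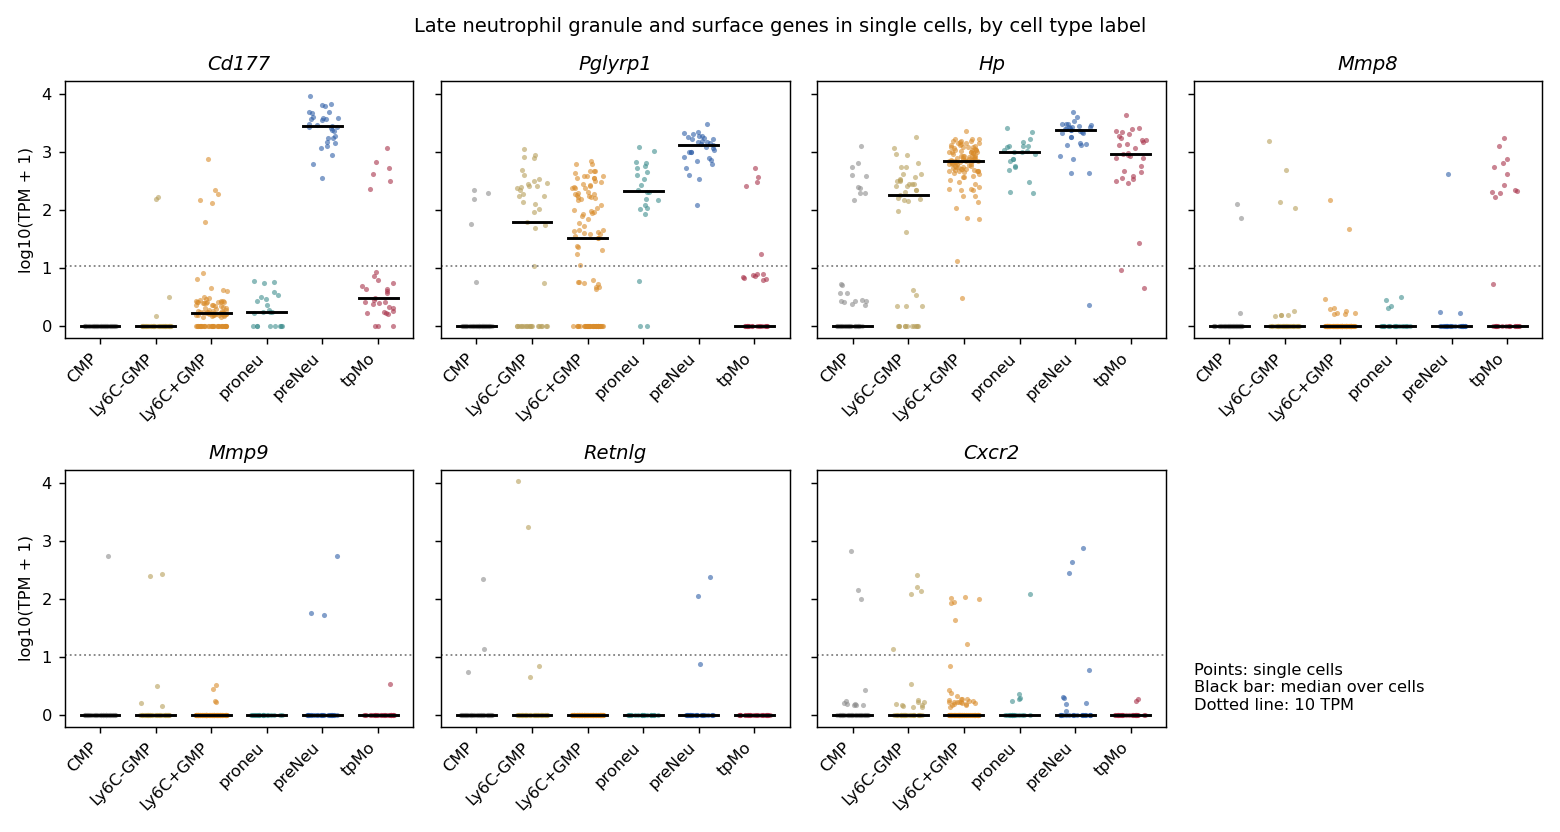
Each point is a cell, with its level as log10(TPM + 1) on the vertical axis and the 6 labels along the horizontal axis; black bars are medians and the dotted line is 10 TPM. Cd177 is high in all 31 preNeu cells, while Mmp8, Mmp9, Retnlg and Cxcr2 are at or near 0 in most cells of every label except Mmp8 in 12 of 31 tpMo cells.

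Cd177 was the member that set preNeu cells apart most. It had 361, 2804 and 9279 TPM in the lowest, median and highest of the 31 preNeu cells, with a mean of 3234 ± 2016 TPM (SD over cells), the level of rank 19 among all genes in that label. In the 22 proneu cells the lowest was 0, the median 0.795 and the highest 5.04 TPM. So the lowest preNeu cell lay above the highest proneu cell, and no proneu cell reached 10 TPM, which allows a share of up to 13.6% of such cells. All 47 CMP cells were listed at 0. In Ly6C+GMP cells Cd177 was in 6 (5.71%), all in title run A, and Ly6C-GMP cells in 2 of 45, at 154 and 171 TPM.

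Pglyrp1 was present earlier. It had 121, 1328 and 3006 TPM in the lowest, median and highest preNeu cells, with a mean of 1305 ± 640 TPM and 31 of 31 cells at 10 TPM or more. In proneu cells it had 0, 212 and 1236 TPM, with a mean of 341 ± 330 TPM and 19 of 22 cells (86.4%, exact 95% interval 65.1% to 97.1%). The ranges overlapped, though the preNeu median was above the highest proneu cell. Of Ly6C+GMP cells 56.2% (46.2% to 65.9%) and of Ly6C-GMP cells 55.6% (25 of 45) had Pglyrp1, at means of 113 ± 163 and 183 ± 269 TPM. It was rare in CMP cells, with 4 of 47, and partial in tpMo cells, with 5 of 31.

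Hp, for haptoglobin, was present in nearly every cell from the Ly6C+GMP label on. In preNeu cells it had 1.32, 2368 and 4868 TPM in the lowest, median and highest cells, with a mean of 2203 ± 1071 TPM. A single preNeu cell was below 10 TPM and the next lowest had 430 TPM. Proneu cells had 199, 1006 and 2659 TPM and tpMo cells 3.60, 929 and 4430 TPM, with 22 of 22 and 29 of 31 cells at 10 TPM or more. These ranges overlapped widely between neutrophil and monocyte labels. It was in all but 1 of the Ly6C+GMP cells (mean 777 ± 438 TPM), 29 of 45 Ly6C-GMP cells (268 ± 362 TPM) and 10 of 47 CMP cells (91.8 ± 231 TPM).

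The proteases had not begun in most preNeu cells. Mmp8 was in 1 of 31 preNeu cells, at 417 TPM, and the other 30 were below 1 TPM. In proneu cells its highest value was 2.27 TPM and 18 of 22 were listed at 0. Mmp9 was in 3 of 31 preNeu cells (9.68%, 2.04% to 25.8%), at 542, 56.8 and 52.7 TPM, with the other 28 listed at 0. It was listed at 0 in all 22 proneu cells, which allows a share of up to 13.6%, and stayed at or below 2.48 TPM in tpMo cells and 2.27 TPM in Ly6C+GMP cells.

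Retnlg and Cxcr2 were as sparse. Retnlg was in 2 of 31 preNeu cells (6.45%, 0.791% to 21.4%), at 237 and 109 TPM, and the next highest cell had 6.46 TPM. It was listed at 0 in every proneu, tpMo and Ly6C+GMP cell, which allows shares of up to 13.6%, 9.68% and 2.86%. Cxcr2 was in 3 of 31 preNeu cells, at 764, 440 and 281.1 TPM. Proneu cells had it once, at 118 TPM, and the highest tpMo value was 0.90 TPM. In Ly6C+GMP cells it was seen in 7 (6.67%), at up to 105.3 TPM and all in title run A, and in Ly6C-GMP cells in 5 of 45. Cxcr2 was therefore sparse in preNeu cells without being restricted to them.

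**Figure D2:**
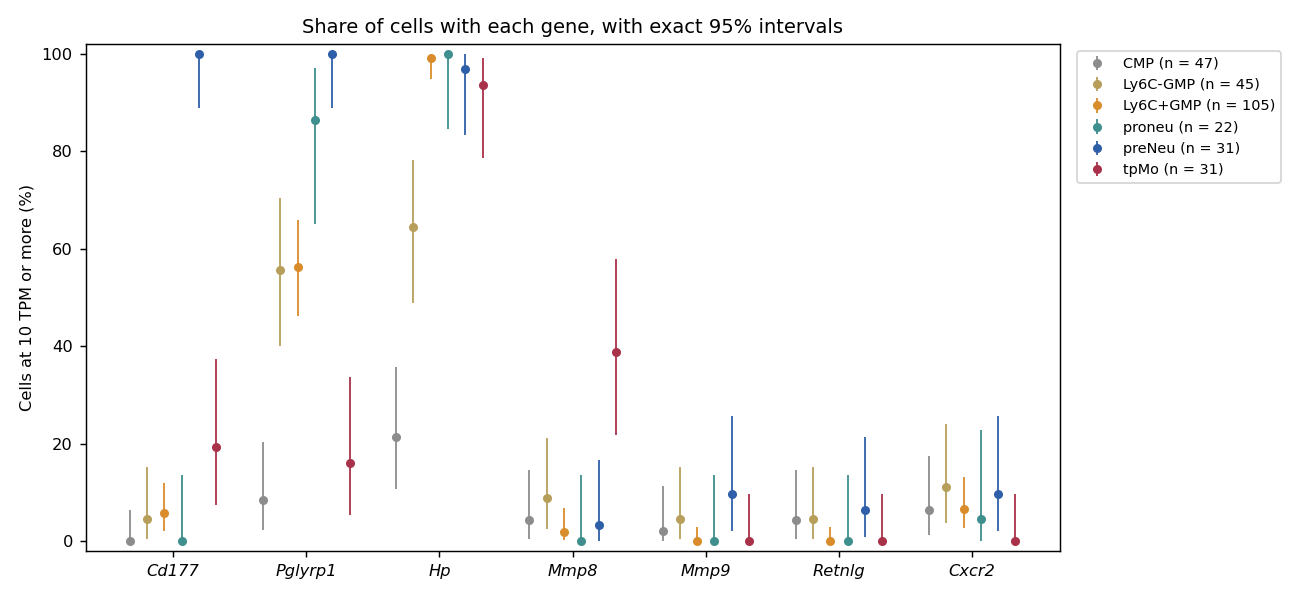
The vertical axis is the percentage of cells at 10 TPM or more and the horizontal axis the 7 genes, with 1 point for each of the 6 labels. Bars are exact 95% intervals, and for a count of 0 they end at the share that 3 cells would give. Cd177 is at 100% in preNeu cells and 0% in proneu cells, while Mmp8 is highest in tpMo cells, at 38.7%.

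Ordered by mean log2(TPM + 1), preNeu came first of the 6 labels for Cd177, Pglyrp1, Hp, Mmp9 and Cxcr2, tpMo for Mmp8 and Ly6C-GMP for Retnlg. A gap between neighbours in that order exceeded the larger of their SDs over cells in 2 places only. These were preNeu over the next label for Cd177 (tpMo, a gap of 8.45 against an SD of 3.12) and for Pglyrp1 (proneu, 2.92 against 2.82). All other neighbours, among them preNeu and proneu for Hp, differed by less than their spread.

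For preNeu against proneu cells, the question was which of these genes are taken up at that step of maturation. Genes averaging 1 TPM or more in at least one of the labels were compared by the difference of mean log2(TPM + 1), and called higher or lower from a difference of 1. Higher in preNeu cells were 2 of the 7, Cd177 by 10.37 and Pglyrp1 by 2.92, and none was lower. Of all 10991 genes compared, 3.58% were higher and 39.8% lower. By difference, Cd177 ranked 6th and Pglyrp1 78th of all genes compared. Hp differed by 0.91, Mmp9 by 0.67, Retnlg by 0.57, Cxcr2 by 0.56 and Mmp8 by 0.08, all under the limit. The median of the 7 was 0.67, and that of all genes compared -0.68. Mean TPM gave another picture of the sparse genes, since a few cells carry it. Cxcr2 averaged 48.2 ± 162 TPM in preNeu cells and 5.56 ± 25.2 TPM in proneu cells, and leaving out 1 cell, the highest, from each label gave 24.3 and 0.188 TPM. Within title run C the same 2 genes were higher, by 10.33 (Cd177) and 3.06 (Pglyrp1), where 3.61% of all genes were. Rescaling that lessens the weight of the most abundant genes brought Hp over the limit.

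In proneu against Ly6C+GMP cells, Pglyrp1 alone was higher, by 3.07, where 2.2% of 12026 genes were. Within title run C, the difference was 1.41, with means of 309 ± 299 TPM in 21 proneu cells and 220 ± 208 TPM in 10 Ly6C+GMP cells, and 5.49% of 11031 genes were higher. The Pglyrp1 difference was thus smaller within the run than over all cells. Hp differed by 0.49 over all cells and by 0.02 within run C. Cd177 differed by -0.13 over all cells and by 0.29 within run C, with a mean of 1.42 TPM in proneu cells and 15.3 TPM in Ly6C+GMP cells, where it rested on 6 cells, 1 of them at 766 TPM. The cell at 766 TPM also had 46094 TPM of Ngp, where the Ly6C+GMP median was 33.4 TPM, and 5503 TPM of Ltf. Its 87.1 TPM of Elane was the lowest of the label, where the median was 25487.5 TPM. Mmp9 and Retnlg were under 1 TPM in both labels and were not compared.

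Ly6C+GMP cells exceeded Ly6C-GMP cells in Hp alone, by 3.75, the 11th largest difference of 12399 genes, of which 9.87% were higher. The other 6 differed by -0.65 to 0.73. No title run held both labels, but the borders of runs A, B and C were set where the cell type labels change. For the 30 Ly6C-GMP cells of run B the separation thus follows from how the runs were drawn. The 15 Ly6C-GMP cells of run H have a separate numbering. Label and run cannot be told apart here, and the values cannot show whether these cells differed in anything but the Ly6C gate. A comparison within a run was not possible, and an effect of library preparation was not tested.

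**Figure D3:**
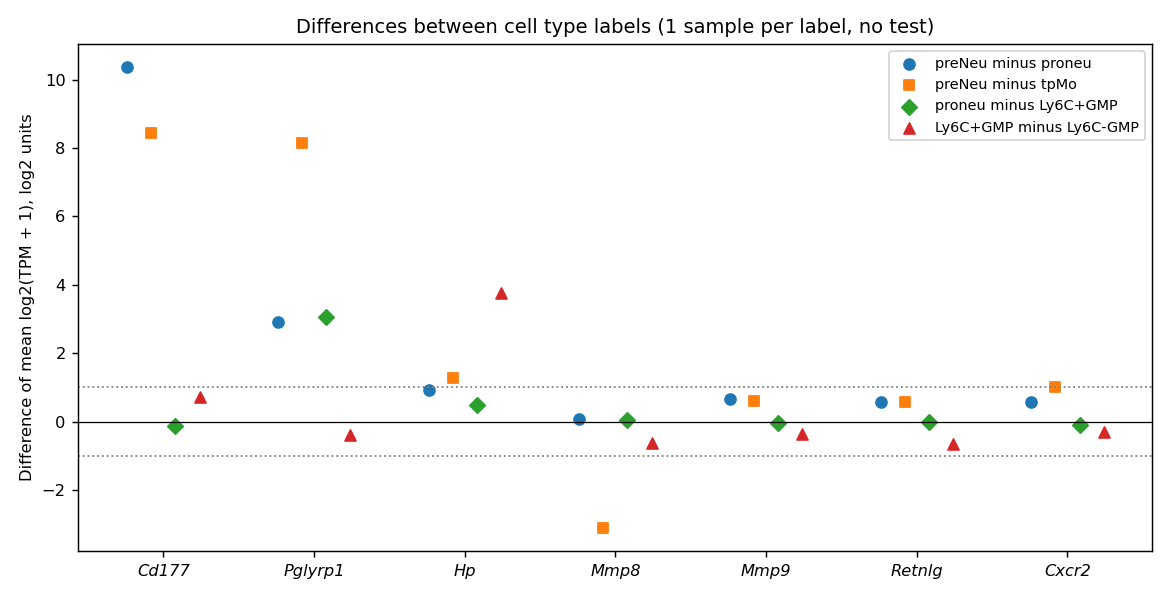
The vertical axis is the difference of mean log2(TPM + 1) between 2 labels and the horizontal axis the 7 genes; each marker is a comparison and dotted lines stand at 1 and -1. Cd177 stands at 10.37 and 8.45 for preNeu against proneu and tpMo, and Mmp8 at -3.11 against tpMo.

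Set against tpMo cells, which carry a monocyte gate, preNeu cells were higher in 3 of the 7 genes and lower in 1. Cd177 was higher by 8.45, Pglyrp1 by 8.16 and Hp by 1.28, where 4.53% of 10826 genes were higher. Mmp8 differed by -3.11, where 26.3% of genes were. Mmp9 differed by 0.61, Retnlg by 0.57 and Cxcr2 by 0.999, just under the limit.

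Mmp8, a neutrophil collagenase gene by name, was thus most frequent in cells of a monocyte gate. It was in 12 of 31 tpMo cells (38.7%, 21.9% to 57.8%), and these made up 12 of the 21 cells of the series with Mmp8 at 10 TPM or more. Values in the 12 cells were 166, 347 and 1760 TPM at the lowest, median and highest, and the other 19 cells were at or below 4.39 TPM, so there was no gradual middle range. The mean was 216 ± 408 TPM, or 164 TPM without the highest cell. In preNeu cells, the mean of 13.5 TPM rested on 1 cell and was 0.0487 TPM without it. Mmp9, Retnlg and Cxcr2 reached 10 TPM in no tpMo cell, with or without Mmp8. Pglyrp1 was in 4 of the 12 cells with Mmp8 and in 1 of the other 19, and Cd177 in 2 of the 12 and 4 of the 19. The monocyte marker sum was at least 1952 TPM in every tpMo cell, and its Spearman correlation with Mmp8 over the 31 cells was 0.21. With 4 secondary granule genes Mmp8 had -0.44 (Camp), -0.33 (Ltf), -0.33 (Lcn2) and -0.25 (Ngp), and with the number of genes detected -0.41. Cells of 1 label share library preparation and total scaling, and these coefficients are descriptions.

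Cd177 in tpMo cells was of 2 kinds. Of the 31 cells 6 had 236 to 1174 TPM, 17 had 1 to 10 TPM, and the median was 2.09 TPM. Of the 6, 2 also had Mmp8, and 10 cells had Mmp8 without Cd177. The low values were set beside those of secondary granule genes that are abundant in preNeu cells. The tpMo median of Cd177 was 0.0646% of the preNeu mean, that of Ngp 0.0635%, of Camp 0.0575%, of Ltf 0.0613% and of Lcn2 0.0925%. In proneu cells of the same title run the median was 0.0247% for Cd177 and 0.0250% for Ltf, but 0.0665% for Ngp, 0.0603% for Camp and 0.0682% for Lcn2. In the 10 Ly6C+GMP cells of that run it was 0.00974% for Cd177, 0.0168% for Ngp, 0.0472% for Camp, 0.0139% for Ltf and 0% for Lcn2. The tpMo medians of the other 2 widespread members were 0% of the preNeu mean for Pglyrp1 and 42.1% for Hp. The percentages thus differed by gene and label. What gives such low values was not tested, and at 10 TPM none of the 17 cells counts as having the gene.

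**Figure D4:**
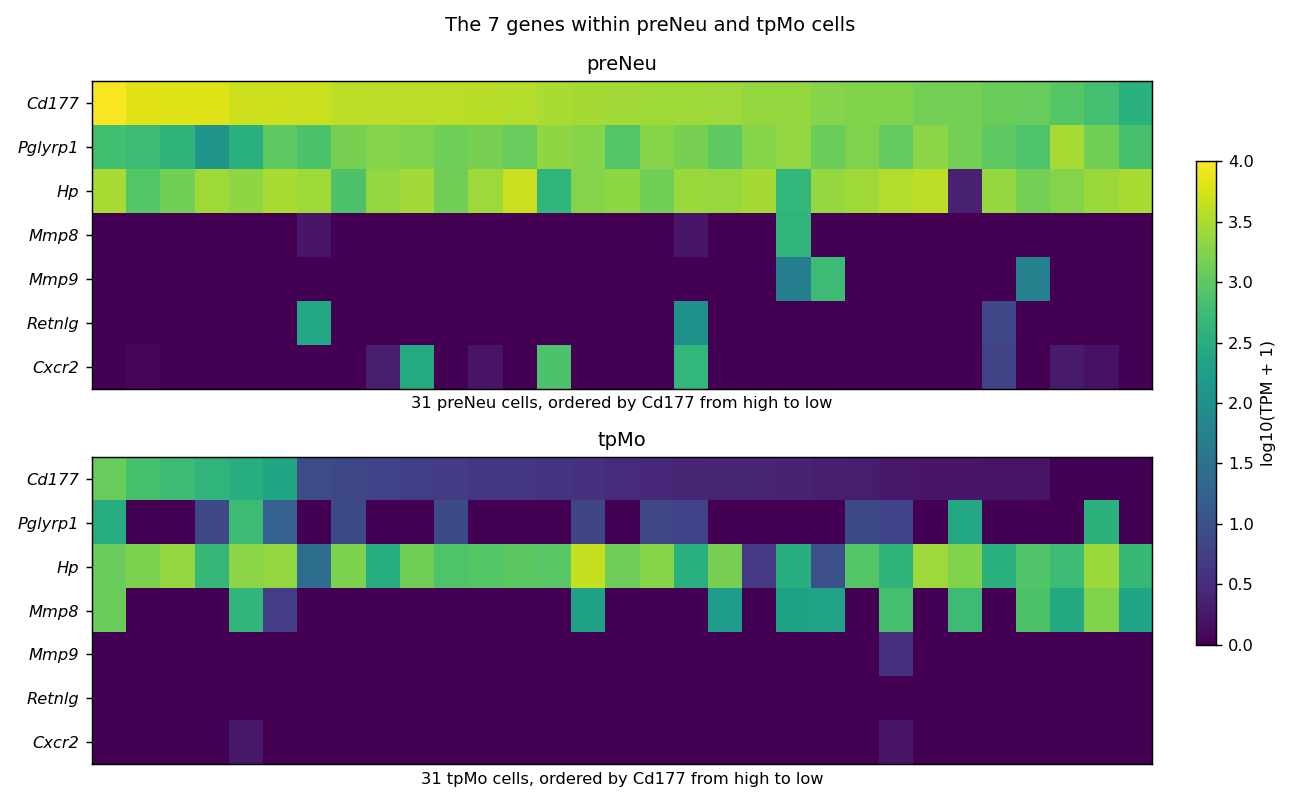
Rows are the 7 genes and columns single cells, 31 preNeu cells above and 31 tpMo cells below, each ordered by Cd177; colour gives log10(TPM + 1). Cd177, Pglyrp1 and Hp fill the preNeu rows with 1 gap for Hp, the other 4 genes appear in 7 preNeu cells, and Mmp8 appears in 12 tpMo cells.

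Within preNeu cells, 30 of 31 had Cd177, Pglyrp1 and Hp together. At least 1 of the 4 sparse genes was in 7 of 31 cells (22.6%, 9.59% to 41.1%). Of these, 5 had a single one and 2 had a pair, Mmp8 at 417 with Mmp9 at 52.7 TPM in one cell and Retnlg at 109 with Cxcr2 at 440 TPM in the other. No preNeu cell had 3 or 4 of them. In proneu cells the count was 1 of 22 and in Ly6C+GMP cells 9 (8.57%), each with a single gene.

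The levels of the 3 widespread genes did not run in parallel. Over the 31 preNeu cells the Spearman correlation of Cd177 with Pglyrp1 was -0.39, with Hp -0.05, and that of Pglyrp1 with Hp -0.17. With 4 secondary granule genes Cd177 differed by gene, at 0.49 with Ltf (lactoferrin), 0.47 with Ngp (neutrophilic granule protein), 0.20 with Lcn2 (lipocalin 2) and -0.13 with Camp (cathelicidin), and it had -0.43 with the primary granule sum. Pglyrp1 had -0.43 with Ngp, -0.21 with Lcn2, -0.12 with Ltf, -0.07 with Camp and 0.32 with the primary granule sum. Hp had 0.38 with the sum of 20 mitosis genes and 0.37 with the primary granule sum. The cell with the most Cd177, at 9279 TPM, had 621 TPM of Pglyrp1, and the cell with the least Pglyrp1, at 121 TPM, had 6290 TPM of Cd177. All these shares are of 1 total, to which Ngp alone gave a mean of 141178 TPM. How far the shared total shapes these coefficients was not tested.

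Late genes also appeared together in a few cells of the early gates. All 4 sparse genes were at 10 TPM or more in 3 cells of the series, 2 Ly6C-GMP cells and 1 CMP cell. Ly6C-GMP cell 2 had 10582 TPM of Retnlg, 1572 TPM of Mmp8, 266 TPM of Mmp9 and 120 TPM of Cxcr2, with Cd177 listed at 0. It had 31.7 TPM of Mpo and 32.9 TPM of Elane, against medians of 27758 and 15559 TPM in its label, and it was the only Ly6C-GMP cell under 50 TPM of Mpo. Of secondary granule genes it had 2694 TPM of Ngp and 2226 TPM of Lcn2, with Camp and Ltf listed at 0. Its S100a8 level was 25506 TPM. Ly6C-GMP cell 32 had all 7 genes, with 1746 TPM of Retnlg, 493 TPM of Mmp8 and 171 TPM of Cd177, beside 28039 TPM of Mpo and 5582 TPM of Ngp. CMP cell 38 had 663 TPM of Cxcr2, 558 TPM of Mmp9, 224 TPM of Retnlg and 73.9 TPM of Mmp8, with 39.4 TPM of Mpo. Of monocyte markers it had 470 TPM of Csf1r, the receptor of macrophage growth factor, but 0.90 TPM of Irf8, 2.54 TPM of Ly86 and 0 of Fn1. Of secondary granule genes it had 360 TPM of Lcn2, but 2.06 TPM of Ngp and 0 of Camp and Ltf. Its S100a8 level was 3440 TPM. These 3 cells carried nearly all Retnlg and Mmp9 of their labels. Without the highest cell the Ly6C-GMP mean of Retnlg was 39.9 TPM, against 274 TPM with it, and the CMP mean of Mmp9 was 0, against 11.9 TPM with it. What sets these cells apart was not tested.

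The genes around the 7 showed where in granule and surface maturation preNeu cells stood. From the list of secondary granule genes, which also held Lyz2, S100a8 and S100a9, 13 were compared. All 13 were higher in preNeu than in proneu cells, with a median difference of 8.51. Ltf (17945 ± 9280 and 7.85 ± 8.27 TPM in preNeu and proneu cells) and Ngp (141178 ± 31973 and 143 ± 220 TPM) led them. All 8 primary granule genes were lower, with a median of -8.61. Over all genes compared, 3.58% were higher and 39.8% lower. Mpo averaged 152 ± 514 TPM in preNeu cells and 47923 ± 11301 TPM in proneu cells. Cd177 by its difference stood with the secondary granule genes, while the 4 sparse genes did not.

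Of 38 other late granule, surface and signalling genes of maturing neutrophils, 30 had the level to be compared, and 16 were higher in preNeu than in proneu cells, 3 lower and 11 within the limit, with a median of 1.29. Lrg1, a secreted leucine-rich glycoprotein of granules, averaged 996 ± 994 TPM in preNeu cells and 13.9 ± 35.2 TPM in proneu cells. Itgb2l, a beta 2 integrin-like gene of neutrophils, averaged 471 ± 460 and 16.8 ± 78.7 TPM, and Padi4, the histone-citrullinating enzyme, 358 ± 388 and 5.07 ± 23.4 TPM, in preNeu and proneu cells. By share of preNeu cells the list held 12 widespread, 10 partial and 16 rare genes. Cxcr1, Il1b, Cxcl2, Asprv1, Stfa1, Stfa2 and BC100530 were listed at 0 in every cell of all 6 labels. They are among the 16 rare genes and say nothing about the stage of preNeu cells. Fpr2 and Il1r2, both of receptor families of mature neutrophils, were each in 5 of 31 preNeu cells and no proneu cell. Among the lower genes were Csf3r (the G-CSF receptor), with a difference of -3.18, and Slpi (a protease inhibitor), with -1.75.

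**Figure D5:**
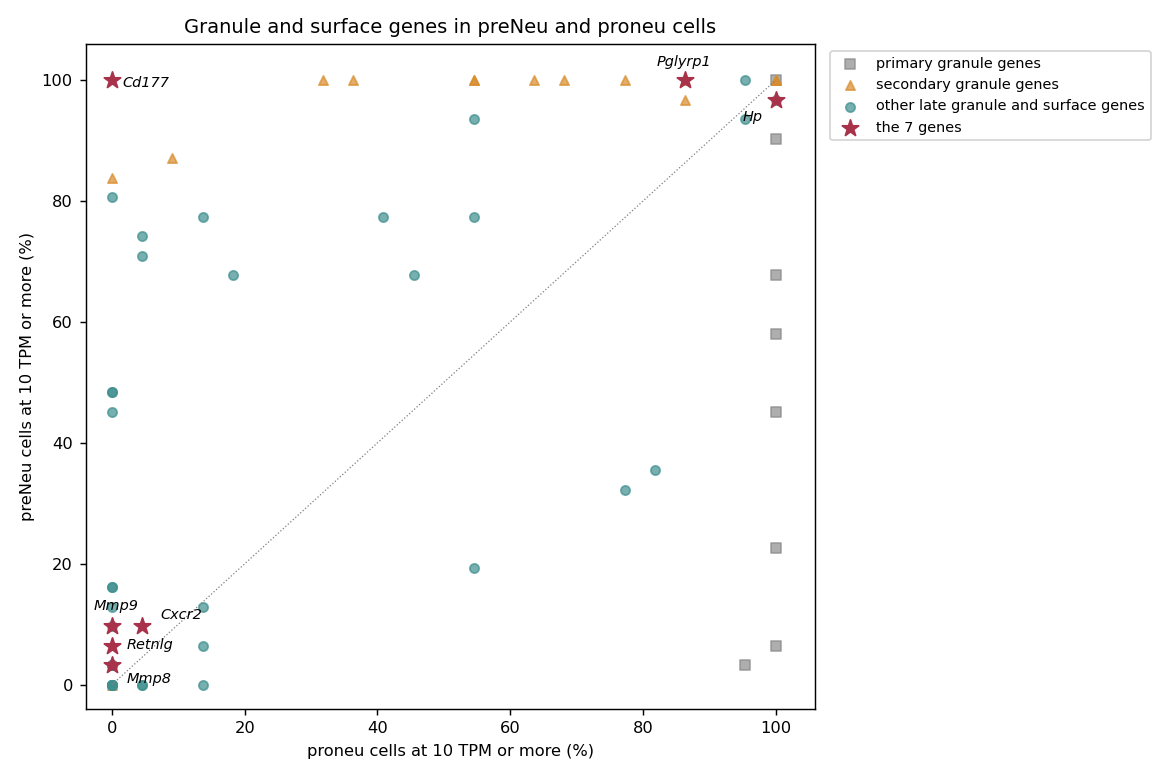
Each symbol is a gene, with the percentage of proneu cells at 10 TPM or more on the horizontal axis and that of preNeu cells on the vertical axis; stars are the 7 genes. Cd177 stands at 0% of proneu and 100% of preNeu cells, Pglyrp1 and Hp at the upper right, and the other 4 in the lower left corner below 10% on both axes.

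Many relatives of the members were listed at 0, which was also so for most symbols. Only 13228 of the 43280 symbols were above 0 in any preNeu or proneu cell. Of 16 metalloproteinase and inhibitor genes, 10 were listed at 0 in all preNeu cells, among them Timp1, Timp2 and Timp3, which encode tissue inhibitors of these proteases. Mmp25, a membrane-bound neutrophil metalloproteinase, was in 4 of 31 preNeu cells and in no proneu or tpMo cell. Pglyrp2, Pglyrp3, Pglyrp4, Hpx (hemopexin), Retn, Retnla and Retnlb were listed at 0 in all preNeu, proneu and tpMo cells, so no level was assigned to those relatives there. Cxcr4, the receptor for marrow retention and part of the preNeu and tpMo gates as protein, was in 9 of 31 preNeu cells (22.6 ± 67.3 TPM), 4 of 22 proneu cells (16.5 ± 55.8 TPM) and 8 of 31 tpMo cells. The CXCR2 ligand genes Cxcl1, Cxcl2, Cxcl3, Cxcl5 and Ppbp were listed at 0 in all cells of these 3 labels. Among transcription factors of the lineage, Cebpe, which drives secondary granule genes, averaged 388 ± 501 TPM in preNeu cells and 73.8 ± 67.1 TPM in proneu cells, and Gfi1, a repressor needed for neutrophil formation, 1.61 ± 5.18 TPM in preNeu cells and 66.8 ± 81.1 TPM in proneu cells.

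The genes most like each member over the cells of all 6 labels were taken by Pearson correlation of log2(TPM + 1) among 9950 genes, as a description in which labels and total scaling are shared. For Cd177 they were Ltf at 0.90, Ngp at 0.85 and Camp (cathelicidin) at 0.83. For Pglyrp1 they were S100a8 at 0.65, Wfdc21 at 0.63 and S100a9 at 0.60, and for Hp Ly6c2 at 0.79, Ly6c1 at 0.74 and Dstn at 0.66. The sparse genes had weaker likenesses that rest on few cells. Trpm2, a cation channel gene, headed Retnlg at 0.49 and Cxcr2 at 0.25 and was second for Mmp9 at 0.41, where Scin was first, also at 0.41. Mmp8 was most like Pira2 at 0.52 and Lilra6 at 0.50, both immunoglobulin-like receptor genes, and Ptpro at 0.48. Lilra6 was listed at 0 in every preNeu cell. Within the 31 preNeu cells, the most alike were Cnn2 at 0.54 for Cd177, H3f3b at 0.55 for Pglyrp1 and Clec12a, a lectin receptor gene, at 0.63 for Hp.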

How the data were processed

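Single bone marrow cells were sorted and their cDNA was made by SMART-seq2, per the labels' protocols. The authors deposited 1 table of TPM values for all cells. RSEM 1.2.19 and GRCm38 are named per the submitters' processing notes. Not given in the sources used here are aligner, annotation and filters. TPM keeps no read depth, so depth is unknown, and there are no molecular identifiers. No cell was left out, and doublets were not called. Of the symbols, 91.2% were found in GENCODE M21.

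Values were read in Python 3.11.15 with pandas 2.3.3, numpy 2.4.6 and scipy 1.17.1, and drawn with matplotlib 3.10.9. Differences were of mean log2(TPM + 1), a pseudocount of 1 TPM that understates low genes, among genes averaging 1 TPM or more in at least one label. The calculation was tested on simulated data. Intervals of shares are exact (Clopper-Pearson, 95%), and for a count of 0 the limit is the share of 3 cells.

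Members and gene lists were chosen with earlier results of these data known. Named were the 7 members; per member, up to 3 genes most correlated over all cells or, for members in at least 10 preNeu cells, over preNeu cells; and per list, up to 3 genes with the largest preNeu-proneu difference and a mean of at least 10 TPM. Other genes were named after their values were seen. Alternatives were other pseudocounts, filters, scalings, detection limits and title runs.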

Additional observations from a re-analysis of the deposited data

How the results depend on the processing

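Counts of members called higher kept within 1.5 times of their value under all alternatives but 3. With the log2 ratio of mean TPM in place of the mean of logs, 7 members were higher in preNeu than in proneu cells (2 before) and 5 in preNeu than in tpMo cells (3 before). That ratio weights the few cells with a sparse gene. With a pseudocount of 0.1 TPM, Ly6C+GMP cells exceeded Ly6C-GMP cells in 2 members (1 before), and the cause was not tested. No called difference changed its sign. Of 224 differences of single members under an alternative, 7 changed sign, all from values of at most 0.13 in size: Mmp8 for preNeu against proneu, and Mmp8, Cd177 and Cxcr2 for proneu against Ly6C+GMP. Rescaling without mitochondrial and the 20 most abundant genes, or by median-ratio size factors, gave 3 and 4 members higher in preNeu than in proneu and tpMo cells, adding Hp and Cxcr2. Median-ratio scaling moved the median of all genes to -0.53, from -0.68, for preNeu against proneu and to -0.26, from -0.36, against tpMo. Genes higher in preNeu than proneu cells numbered 394, and 1893 by the ratio of means, 572 by size factors, 220 with a pseudocount of 10 TPM; the share of higher among called genes was 8.26%, and 26.8% by the ratio of means. Of the 224, 209 moved by less than the larger SD over cells of the labels compared and 15 by more. At 1 TPM, 3 members were rare in preNeu cells, Cxcr2 being in 5 of 31, and 9 cells had a sparse gene; at 100 TPM 6 cells had one. No paired analysis was possible because the labels give cells no replicate numbers shared between groups. Depth per cell is unknown, so a gene listed at 0 may have been missed.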
